A study of Mus musculus with 12 samples.

Results

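Oxamate was given to mouse spermatocytes in late prophase of the first meiotic division, and the mRNA of the treated cells was compared with that of untreated cells cultured alongside them. The comparison used 6 of the series' 12 RNA-seq libraries, 3 from pachytene/diplotene (PD) cells cultured for 48 h with 24 mM oxamate and 3 from PD cells cultured for the same time without it. A gene was tested where its normalized count averaged 10 or more across these 6 libraries, and 16401 of the 49216 genes with counts in every library reached that level. All cells were of the C57Bl strain, with the red fluorescent protein tdTomato in the germ cells, and were isolated by flow cytometry before culture. The other 6 libraries, from leptotene/zygotene (LZ) cells kept for 6 days with or without 0.3 mM octyl-L2HG, a cell-permeable form of L-2-hydroxyglutarate, were used for the level of a gene at that earlier stage. The labels give 3 independent experiments, and the column names carry a code shared by an untreated and an oxamate library; the pairs are called A, B and C here. The p-values measure the spread between 3 libraries per group, from cells that had been sorted and held in culture, and in such bulk samples fewer cells of a type and less RNA per cell cannot be told apart.

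Oxamate is a pyruvate analogue that competes for the active site of lactate dehydrogenase, the enzyme that interconverts pyruvate and lactate. Pachytene spermatocytes take up lactate, which Sertoli cells supply, and carry a germ-cell form of the enzyme, LDHC, beside the common subunit LDHA. Lactate dehydrogenase can also reduce 2-oxoglutarate to L-2-hydroxyglutarate, a metabolite that inhibits 2-oxoglutarate-dependent dioxygenases, among them histone and nucleic acid demethylases. The series' description states that this oxamate dose lowered 2-hydroxyglutarate in PD cells to what LZ cells contain. The metabolite was not among the values analysed here.

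The 6 libraries held 15202579 to 21275486 counts each. Counts were scaled by the trimmed mean of M values (TMM), called normalized counts below, and log2 fold changes are on the scale of log2(normalized count + 1), oxamate minus untreated. Marker shares went with the stage labels, though the marker lists were chosen with earlier results of these data known. Pachytene and diplotene markers took 3.19% ± 0.026 of counts in untreated PD libraries (SD, n = 3) and 0.666% on average in untreated LZ libraries, while early meiotic markers took 0.499% and 1.71%. With oxamate these shares were 3.11% ± 0.0718 and 0.501% ± 0.0222 (n = 3), and both overlapped with the untreated libraries. The first principal component, with 41.8% of the variance, placed the 3 oxamate libraries at 21.1 to 32.3 and the 3 untreated libraries at -30.8 to -21.3.

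With oxamate, 1182 genes were higher (7.21% of those tested) and 812 were lower (4.95%; limma, adjusted p under 0.05). Most of the rises were small and the falls were larger. The median log2 fold change was 0.47 among genes called higher and -0.75 among genes called lower, against 0.0046 over all genes tested. A change of at least 2-fold was reached by 88 of the higher genes and 237 of the lower ones, and 805 higher and 257 lower genes changed by less than 1.5-fold. The called genes also differed in level, with a median untreated count of 635.7 for the higher and 158 for the lower. The part of this level in the sizes of the changes was not tested. In all 1994 called genes the 3 oxamate libraries lay on one side of the 3 untreated ones. Groups that did not overlap were found in 2929 genes on the higher side (17.9% of all tested) and 2509 on the lower side (15.3%). When the pair was added to the model, 3018 genes were called higher (18.4%) and 2486 lower (15.2%), among them 1181 and 812 of the calls above. Scaling by total counts moved the split from 59.3% of calls higher to 44.1% (824 higher and 1043 lower), with a median over all genes of -0.049.

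**Figure D1:**
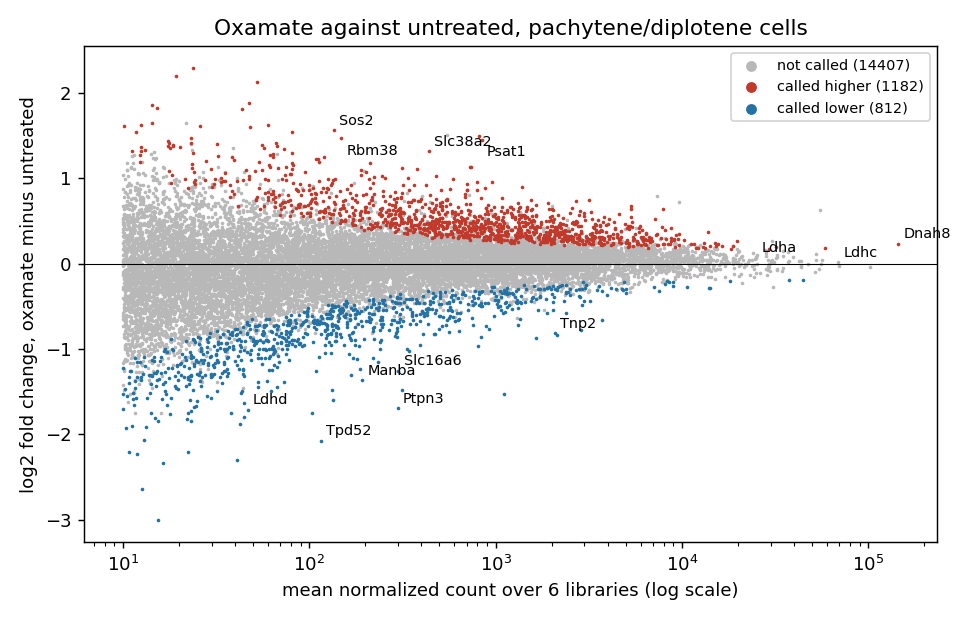
Mean normalized count over the 6 PD libraries (log scale) against the log2 fold change, oxamate minus untreated, of each of the 16401 genes tested; colours mark the 1182 genes called higher and the 812 called lower. Called genes run from -3 to 2.28, with Tpd52 at -2.08 and Sos2 at 1.56, while Ldha at 0.07 and Ldhc at 0.01 lie near 0.

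The genes of the enzyme that oxamate inhibits differed between the groups by less than the spread of the libraries. Ldha, which encodes the common subunit, had normalized counts of 25420, 24610 and 23480 in untreated libraries A, B and C and of 27400, 26090 and 23860 with oxamate (log2 fold change 0.07 ± 0.06 SE, n = 3 per group, limma adjusted p = 0.468). Ldhc, the germ-cell form, had 71980, 66570 and 66440 untreated and 73610, 70590 and 63130 with oxamate (0.01 ± 0.06, adjusted p = 0.906), and the sign of this difference flipped under total-count scaling (-0.04). The groups overlapped for both genes, which neighbour each other on chromosome 7 (GRCm38, Ldha at 46841475 to 46855627 and Ldhc at 46861203 to 46878142, both on the plus strand). Ldhb, the heart-type subunit, averaged 3.67 normalized counts and was not tested.

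Ldhd, which encodes a different enzyme, the mitochondrial D-lactate dehydrogenase, was called lower. It lies on the minus strand of chromosome 8 at 111623785 to 111630374. Its normalized counts were 64.1, 78.9 and 73.2 untreated and 23.3, 21.9 and 18.7 with oxamate, a fall of 3.38-fold (-1.71 ± 0.20, adjusted p = 0.00246). Every oxamate library lay below every untreated one by more than the spread within either group. Ldhd kept its call in each of the 6 fits that left out 1 library, with adjusted p up to 0.0215.

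Other enzymes that remove or make 2-hydroxyglutarate moved less. D2hgdh, which oxidises D-2-hydroxyglutarate, had 54.6, 63.8 and 60.2 against 45.8, 43.9 and 38.4; its groups did not overlap, and its adjusted p was 0.119 without and 0.0495 with the pair in the model. Malate dehydrogenase 2, Mdh2, had an adjusted p of 0.179 without and 0.0356 with the pair, at 0.29 ± 0.13. Mdh1, Idh1 and Idh2 had log2 fold changes of 0.16, -0.05 and 0.13 with adjusted p of 0.709, 0.792 and 0.898, and Idh2 changed sign without untreated B or oxamate A. Of 28 tested genes of lactate dehydrogenase and 2-hydroxyglutarate metabolism, 1 was called higher and Ldhd was the 1 called lower. These shares were 3.57% each, against 7.21% and 4.95% of all genes, and the median over the 28 was 0.11. With the pair in the model 7 were called higher and 2 lower, against 18.4% and 15.2% of all genes.

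**Figure D2:**
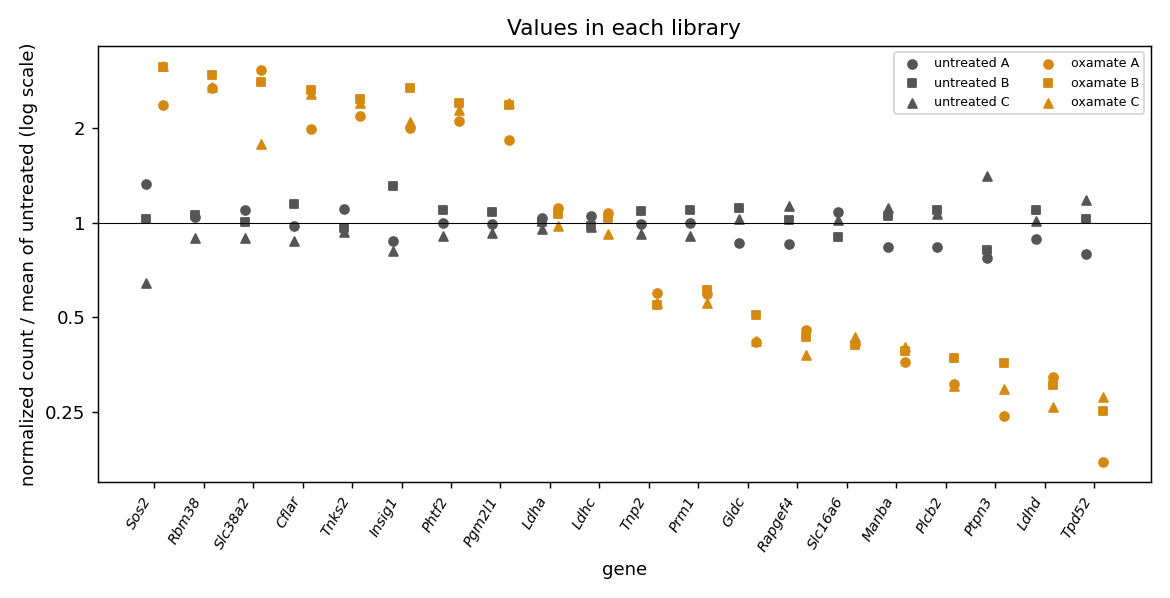
Normalized count of 20 genes in each PD library divided by the mean of the 3 untreated libraries (log scale), with a marker shape for each pair. Ldha and Ldhc lie near 1 in both groups, the 8 genes on the left lie above and the 10 on the right below, with no overlap between groups.

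Targets of ATF4 had the highest median of the gene lists examined here. ATF4 is the transcription factor of the integrated stress response, in which kinases that sense amino acid shortage, misfolded protein or haem shortage slow general translation while ATF4 is made, and ATF4 then raises genes of amino acid synthesis, uptake and tRNA charging. Of 41 targets tested, 11 were called higher (26.8%, against 7.21% of all genes) and 0 lower (against 4.95%), with 19 higher and 3 lower before adjustment (p under 0.05); voom weights called 10 higher and 0 lower. The median log2 fold change over the 41 was 0.45, and 0.59, 0.50 and 0.25 in pairs A, B and C. With the pair in the model 26 were called higher and 3 lower, against 18.4% and 15.2% of all genes. The count of higher calls was 20 without oxamate C, 5 without oxamate A, 3 without oxamate B, 5 without untreated B and 4 without untreated C. Under total-count scaling it was 8, with 2 called lower.

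Slc38a2, which encodes a sodium-coupled importer of neutral amino acids, had 272, 249 and 221 normalized counts untreated and 759, 694 and 441 with oxamate (chromosome 15, 96687392 to 96699730, minus strand). The treated libraries differed among themselves, with C lowest, yet each lay above all untreated ones (1.31 ± 0.20, adjusted p = 0.0067). Psat1, the second enzyme of serine synthesis, had 538, 556 and 287 untreated and 1423, 1317 and 932 with oxamate (1.45 ± 0.30, adjusted p = 0.0294, and 3.17e-12 with the pair). Library C was the lowest of its group in both cases. The call of Psat1 ended without untreated A, oxamate A or oxamate B (adjusted p up to 0.127) and with no filter on low counts (0.121), and that of Slc38a2 held in all 6 such fits (up to 0.0375).

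ATF4 itself was not called; Atf4, Chac1, Asns, Ddit3, Fgf21 and Slc7a11 are described here after their values were seen. Atf4 mRNA was 719, 709 and 741 untreated and 1123, 901 and 706 with oxamate (0.31 ± 0.15, adjusted p = 0.217). Chac1, which degrades glutathione, had 47.5, 41.8 and 31.0 against 165, 86.8 and 33.5 (0.97 ± 0.53, adjusted p = 0.289, and 0.00759 with the pair). For both genes the oxamate library of pair A was the highest, and that of pair C lay just below the untreated range for Atf4 and inside it for Chac1. Other targets had lower values with oxamate: Asns, asparagine synthetase, at -0.25 ± 0.09 (adjusted p = 0.114, 0.00873 with the pair) and Ddit3, the factor CHOP, at -0.26 ± 0.09 (adjusted p = 0.0827, 0.00407 with the pair). The annotated ends of Ddit3 and Mars overlap on opposite strands of chromosome 10, so reads there may not be separable. Of the 19 kinases, phosphatase subunits and other regulators of the response, 1 was called higher (5.26%, against 7.21% of all genes). This was Ppp1r15b, a phosphatase subunit that reverses the response, which rose from 602 ± 11.8 to 818 ± 99.1 (0.43 ± 0.10, adjusted p = 0.0225). Ppp1r15b lost its call without any 1 library other than oxamate C (up to 0.0899).

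**Figure D3:**
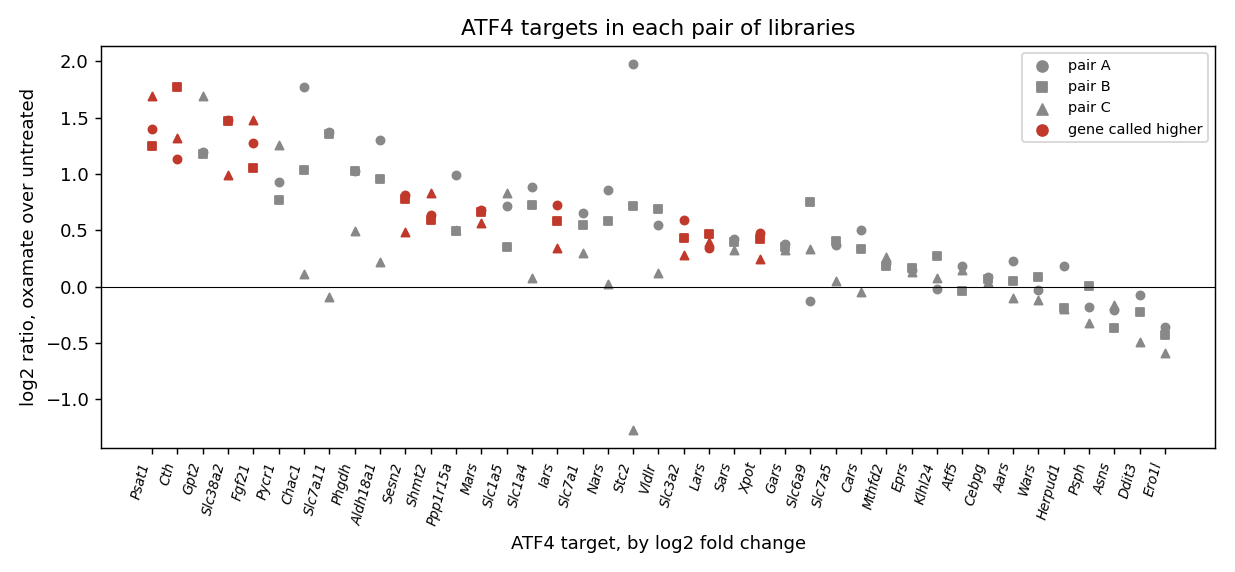
The log2 ratio of oxamate over untreated in pairs A, B and C for each of the 41 ATF4 targets tested, in order of their fitted fold change; red marks the 11 genes called higher. Slc38a2 and Psat1 lie at 0.99 or more in all 3 pairs, while Chac1 ranges from 1.78 in pair A to 0.11 in pair C and Asns and Ddit3 lie below 0.

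Promoters were searched because ATF4 binds a composite element with C/EBP factors. The letters TGATGNAA, on either strand, occurred in the RefSeq windows (250 bases before to 50 after a start, GRCm38.p6) of 11 of the 31 ATF4 targets that matched the promoter table, a share of 35.5% against 3.32% of 11553 tested genes. They occurred in 2.64% of the genes called higher and 4.12% of those called lower. The list was made of genes already held to be ATF4 targets, so its high share of the letters is not a result of these data. Among the 11 targets with the letters, Fgf21 and Iars were called higher and the other 9 were not called. Parts of 4 windows are shown, 5′ to 3′ in the direction of the gene with the match in capitals, for Fgf21 (chr7:45615582-45615669, minus strand), Chac1 (chr2:119351009-119351096, plus strand), Slc7a11 (chr3:50443632-50443719, minus strand) and Asns (chr6:7693210-7693272, minus strand).
Fgf21: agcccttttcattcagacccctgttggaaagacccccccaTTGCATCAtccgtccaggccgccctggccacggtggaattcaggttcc
Chac1: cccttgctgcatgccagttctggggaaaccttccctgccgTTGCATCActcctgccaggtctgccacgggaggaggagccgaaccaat
Slc7a11: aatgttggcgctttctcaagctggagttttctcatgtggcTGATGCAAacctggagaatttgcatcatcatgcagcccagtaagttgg
Asns: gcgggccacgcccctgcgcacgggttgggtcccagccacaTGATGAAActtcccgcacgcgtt
The genes behind these windows did not move alike. Fgf21, a hormone gene with few counts here, had 8.31, 8.12 and 4.30 untreated and 21.5, 18.0 and 13.8 with oxamate (1.27 ± 0.36, adjusted p = 0.045). Every untreated value of Fgf21 lay under the mean of 10 needed for testing, which it reached (12.3) through its oxamate libraries. It is among the 11 ATF4 targets called higher. Slc7a11, the cystine importer, whose window holds another match on the other strand, left in lower case, had 64.1, 76.6 and 51.6 against 168, 198 and 48.2 (0.88 ± 0.53, adjusted p = 0.341). A match describes the letters of a window and not a bound site.

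Genes for serine and one-carbon metabolism, amino acid transport and tRNA charging had smaller medians than the ATF4 targets, with which these lists share members such as Psat1, Slc38a2, Iars and Lars. Of 24 serine and one-carbon enzymes, 5 were called higher (20.8%, against 7.21% of all genes) and 1 lower (4.17%, against 4.95%), with a median of 0.17. Shmt2 and Shmt1, the mitochondrial and cytosolic enzymes that pass a one-carbon unit from serine to folate, rose by 0.69 ± 0.18 (adjusted p = 0.0342) and 0.38 ± 0.09 (adjusted p = 0.0275). Both lost their calls in most fits without 1 library: Shmt2 without untreated B, untreated C, oxamate A or oxamate B (up to 0.102), and Shmt1 without any but oxamate C (up to 0.108) and in the fit over all 12 libraries (0.0541). The count of higher calls was 5 without oxamate C and 0 to 2 without any other single library. Gldc, the subunit of the glycine cleavage system that decarboxylates glycine, went the other way: 279, 361 and 334 untreated against 136, 165 and 137 with oxamate (-1.15 ± 0.14, adjusted p = 0.00256), a call held in all 6 such fits.

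Of 37 aminoacyl-tRNA synthetases, 6 were called higher (16.2%, against 7.21% of all genes) and 0 lower (against 4.95%). Before adjustment 12 were higher and 1 lower (p under 0.05). Voom called 6 and 0, and the model with pairs 13 and 2, against 18.4% and 15.2% of all genes. Iars, which charges tRNA with isoleucine, rose from 4127, 4504 and 4269 to 6817, 6747 and 5413 (0.55 ± 0.09, adjusted p = 0.00673). Mars, for methionine, rose by 0.63 ± 0.12 (adjusted p = 0.0166), Lars, for leucine, by 0.40 ± 0.08 (0.0155) and the mitochondrial Yars2, for tyrosine, by 0.72 ± 0.15 (0.0168); Mars lost its call without untreated C (0.0525), Lars and Yars2 lost theirs without untreated B, untreated C or oxamate B (up to 0.0734 and 0.0666), and Iars kept its call. The count of synthetases called higher was 11 without oxamate C, 2 without oxamate B or untreated B and 1 without untreated C. Of 26 amino acid transporters, 3 were called higher (11.5%, against 7.21% of all genes) and 4 lower (15.4%, against 4.95%). When 1 library was left out, 1 to 5 were called higher and 1 to 3 lower. Slc3a2, the heavy chain shared by several exchangers, rose by 0.43 ± 0.10 (adjusted p = 0.0277), a call that held in the absence of oxamate C but of no other library (up to 0.107). Slc1a2, a glutamate importer, fell from 846, 869 and 799.5 to 558, 598 and 573 (-0.54 ± 0.08, adjusted p = 0.00467), and its adjusted p was 0.374 in the fit over all 12 libraries.

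Of 33 genes tied to p53 and cell death, 10 were called higher (30.3%, against 7.21% of all genes) and 0 lower (against 4.95%), with 15 higher and 4 lower before adjustment (p under 0.05); voom called 9 and 0, and the model with pairs 15 and 4. The median was 0.16, and 4 to 8 were called higher when 1 library was left out, with 4 without oxamate B. Rbm38, an RNA-binding protein that is a p53 target and binds p53 mRNA, had 81.9, 83.5 and 70.6 untreated and 211, 232 and 213 with oxamate (chromosome 2, 173020498 to 173034734, plus strand; 1.47 ± 0.14, adjusted p = 0.00204). Cflar, which blocks caspase-8 activation, rose from 68.9, 81.2 and 62.0 to 141, 187 and 181 (1.25 ± 0.17, adjusted p = 0.00356). Apaf1, the scaffold of the apoptosome, rose from 10.7, 9.28 and 9.47 to 26.0, 29.9 and 25.6 (1.38 ± 0.26, adjusted p = 0.0104). The untreated mean of Apaf1 was 9.81, so it reached the mean of 10 needed for testing through its oxamate libraries (mean 27.2). Trp53inp1, a p53-induced nuclear protein, rose by 0.81 ± 0.13 (adjusted p = 0.00601). The list thus holds an inhibitor of death signalling beside a component of the death machinery, and all 4 genes kept their calls in each fit without 1 library, Apaf1 narrowly at up to 0.0493.

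Among immediate early and feedback genes, 4 of 25 were called higher (16%, against 7.21% of all genes) and 1 lower (4%, against 4.95%). Mafk, a small MAF partner of NRF2 and other factors, rose from 8.31, 9.28 and 12.1 to 30.5, 24.9 and 26.6 (1.39 ± 0.27, adjusted p = 0.0123). The untreated mean of Mafk was 9.88, so it reached the mean of 10 needed for testing through its oxamate libraries (mean 27.3). It is counted here and in the NRF2 list below. Tnfaip3, which restrains NF-kB signalling, fell from 80.7, 65.0 and 97.3 to 29.6, 42.9 and 48.2 (2.01-fold lower, adjusted p = 0.0231), a call lost without untreated A, untreated C or oxamate B (up to 0.0919). Mafk kept its call in these fits, at up to 0.0493. Of 32 genes of the NRF2 pathway and antioxidant enzymes, 3 were called higher (9.38%, against 7.21% of all genes) and 0 lower (against 4.95%). The 3 were Mafk, Gclm and Keap1. Voom also called 3 and 0, and 5 and 2 had an unadjusted p under 0.05. Gclm lost its call without oxamate B or any untreated library (up to 0.0903), and Keap1 in all 6 fits without 1 library (up to 0.126), under total-count scaling and in the fit over all 12 libraries. Vegfa, a growth factor gene raised by hypoxia-inducible factors, rose from 90.2, 89.3 and 79.2 to 188, 174 and 126 (0.89 ± 0.17, adjusted p = 0.012, and 0.0869 in the fit over all 12 libraries). Vegfa, Kdm3a and Slc2a3 were the 3 of 17 hypoxia-inducible targets called higher (17.6%, against 7.21% of all genes).

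Endoplasmic reticulum chaperones and heat shock proteins split. Of 37 genes, 9 were called higher (24.3%, against 7.21% of all genes) and 3 lower (8.11%, against 4.95%), with a median of 0.10. Hyou1, a chaperone of the endoplasmic reticulum, rose from 6351, 6602 and 5568 to 9807, 9977 and 9096 (0.64 ± 0.07, adjusted p = 0.00239). Sel1l, an adaptor of the ligase that disposes of misfolded proteins, rose by 0.38 ± 0.07 (adjusted p = 0.00831) and the disulfide isomerase Pdia3 by 0.29 ± 0.05 (0.00846). The 3 lower genes act in the cytosol. Hspa2, the testis chaperone of late spermatocytes, fell from 47110, 48820 and 47220 to 43790, 41380 and 40330 (-0.19 ± 0.04, adjusted p = 0.0215); Bag3 and Hsph1, which work with HSP70 proteins, fell by 0.34 and 0.33 on the log2 scale (adjusted p = 0.0253 and 0.0411). None of these 3 kept its call in every fit without 1 library (up to 0.102 for Hspa2, 0.11 for Bag3 and 0.13 for Hsph1), and the fit over all 12 libraries called 0 of them.

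Cholesterol and fatty acid synthesis genes, taken as a single list, were called higher in 4 of 32 cases (12.5%, against 7.21% of all genes) and lower in 0 (against 4.95%). Before adjustment 7 were higher and 2 lower (p under 0.05), and voom also called 4 and 0. Insig1, which retains the sterol sensor in the endoplasmic reticulum, rose from 60.5, 90.5 and 55.9 to 138, 186 and 145 (1.19 ± 0.21, adjusted p = 0.00836). Hmgcs1, which makes the precursor of mevalonate, rose from 519, 486 and 544 to 814, 736 and 815 (0.61 ± 0.09, adjusted p = 0.00408). Sqle, squalene epoxidase, rose by 0.34 ± 0.07 (adjusted p = 0.0169). Insig1 and Hmgcs1 held in every fit without 1 library; Sqle was lost without untreated B, untreated C or oxamate B. The sterol regulatory letters TCACNCCAC, on either strand, stood in the promoter window of 1 of the 26 matched members, Hmgcs1, and in 1.38% of all tested genes. The stretch lies on the plus strand at chr13:119690174-119690262, with the match in capitals.
Hmgcs1: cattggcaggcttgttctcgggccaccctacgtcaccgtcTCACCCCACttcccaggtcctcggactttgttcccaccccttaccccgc

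The shares of glycolysis genes called were near those over all genes tested. Of 30 glycolysis and glucose uptake genes, 2 were called higher and 2 lower (6.67% each, against 7.21% and 4.95% of all genes; median -0.06), and the fit over all 12 libraries called 0 and 0. Slc2a3, the glucose transporter GLUT3, had 54620, 54430 and 55890 untreated and 62390, 65000 and 59740 with oxamate (0.18 ± 0.04, adjusted p = 0.022). Slc2a5, the fructose transporter, fell from 19290, 20000 and 18850 to 17360, 17080 and 16190 (-0.20 ± 0.05, adjusted p = 0.0267). Pfkp, the platelet-type phosphofructokinase, rose by 0.28 ± 0.06 (adjusted p = 0.0193). These 3 lost their calls in some fit without 1 library: Slc2a3 without oxamate B or any untreated library (up to 0.118) and Slc2a5 and Pfkp without any but oxamate A (up to 0.12 and 0.0848).

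Of the tricarboxylic acid cycle and pyruvate dehydrogenase genes, 2 of 31 were called higher (6.45%, against 7.21% of all genes) and 0 lower (against 4.95%). At an unadjusted p under 0.05 there were 6 higher and 2 lower. Cs, citrate synthase, rose from 996, 955 and 861 to 1252, 1299 and 1245 (0.44 ± 0.08, adjusted p = 0.0102). Pdk2, a kinase that switches off pyruvate dehydrogenase, rose by 0.27 ± 0.07 (adjusted p = 0.0321), a call lost without any 1 library other than untreated A (up to 0.11), under total-count scaling (0.0737) and in the fit over all 12 libraries (0.568). By limma, 0 of 77 nuclear genes of oxidative phosphorylation were called, against 7.21% higher and 4.95% lower of all genes. Of the 77, 6 were higher and 0 lower before adjustment (p under 0.05), voom also called 0, and the model with pairs called 10 higher. Their median was 0.06, or 0.01 under total-count scaling, and their log2 fold changes ran from -0.28 to 0.39. Of 8 mitochondrial mRNAs 0 were called by limma or voom, 1 had an unadjusted p under 0.05, the model with pairs called 2, and their pair medians were -0.05, -0.08 and 0.62 in A, B and C.

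Lactate and related acids cross membranes through monocarboxylate transporters, the SLC16 family, of which some members carry other substrates. Slc16a6 had 458, 383 and 431 untreated and 174, 173 and 184 with oxamate (-1.25 ± 0.11, adjusted p = 0.00204). The 3 oxamate libraries lay close together and far below the untreated ones. Slc16a12, which transports creatine, fell from 28.5, 38.3 and 30.1 to 10.8, 9.97 and 16.7 (-1.33 ± 0.28, adjusted p = 0.0168), and Slc16a9 rose from 14.2, 19.7 and 12.1 to 26.9, 39.9 and 32.5 (1.07 ± 0.28, adjusted p = 0.0337). Slc16a12 lost its call without untreated B, untreated C or oxamate B (up to 0.078), and Slc16a9 without any library other than oxamate A (up to 0.127). In the fit over all 12 libraries their adjusted p was 0.1 and 0.0576. Slc16a7 and Slc16a1, the lactate and pyruvate transporters MCT2 and MCT1, were looked at after their values were seen and had overlapping groups: 6771, 5882 and 6209 against 6748, 5545 and 6165 for Slc16a7, and 188, 174 and 277 against 201, 223 and 222 for Slc16a1.

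Enzymes that use 2-oxoglutarate, the substrate from which 2-hydroxyglutarate is made, were examined because the metabolite inhibits them. Of 46 dioxygenase genes tested, 7 were called higher (15.2%, against 7.21% of all genes) and 1 lower (2.17%, against 4.95%), with a median of 0.07. With the pair in the model 13 were called higher and 9 lower, against 18.4% and 15.2% of all genes. Kdm3a, a histone H3 lysine 9 demethylase needed for spermiogenesis, rose from 6719, 7367 and 6978 to 9056, 9691 and 8989 (0.40 ± 0.06, adjusted p = 0.00411). Kdm6b, which demethylates histone H3 lysine 27, rose from 201, 246 and 241 to 374, 382 and 422 (0.78 ± 0.12, adjusted p = 0.0046). Alkbh5, an RNA N6-methyladenosine demethylase needed for male fertility, rose from 1379, 1397 and 1220 to 1824, 1994 and 2036 (0.55 ± 0.08, adjusted p = 0.00416). These 3 held in all 6 fits without 1 library. Kdm8 was the 1 lower, from 95.4 ± 9.90 to 60.3 ± 9.42 (-0.66 ± 0.18, adjusted p = 0.04), and it lost its call in each of the 6.

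Of 41 histone and arginine methyltransferases, 10 were called higher (24.4%, against 7.21% of all genes) and 0 lower (against 4.95%), with a median of 0.10. Before adjustment 15 were higher and 4 lower (p under 0.05). Voom called 10 and 0, and the model with pairs 15 and 4, against 18.4% and 15.2% of all genes. Kmt5a, which places monomethylation on histone H4 lysine 20, rose from 420.2, 495 and 391 to 673, 730.0 and 710.4 (0.70 ± 0.10, adjusted p = 0.0046). Carm1, an arginine methyltransferase, rose by 0.52 ± 0.09 (adjusted p = 0.0067), Ezh2, the catalytic subunit of Polycomb complex 2, by 0.43 ± 0.07 (0.00721) and Setdb2, a histone H3 lysine 9 methyltransferase, by 0.56 ± 0.10 (0.0104). All 4 kept their calls without any 1 library, while the list's count fell to between 4 and 6. Writers of methyl marks and 2-oxoglutarate-dependent erasers were both among the genes called higher.

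**Figure D4:**
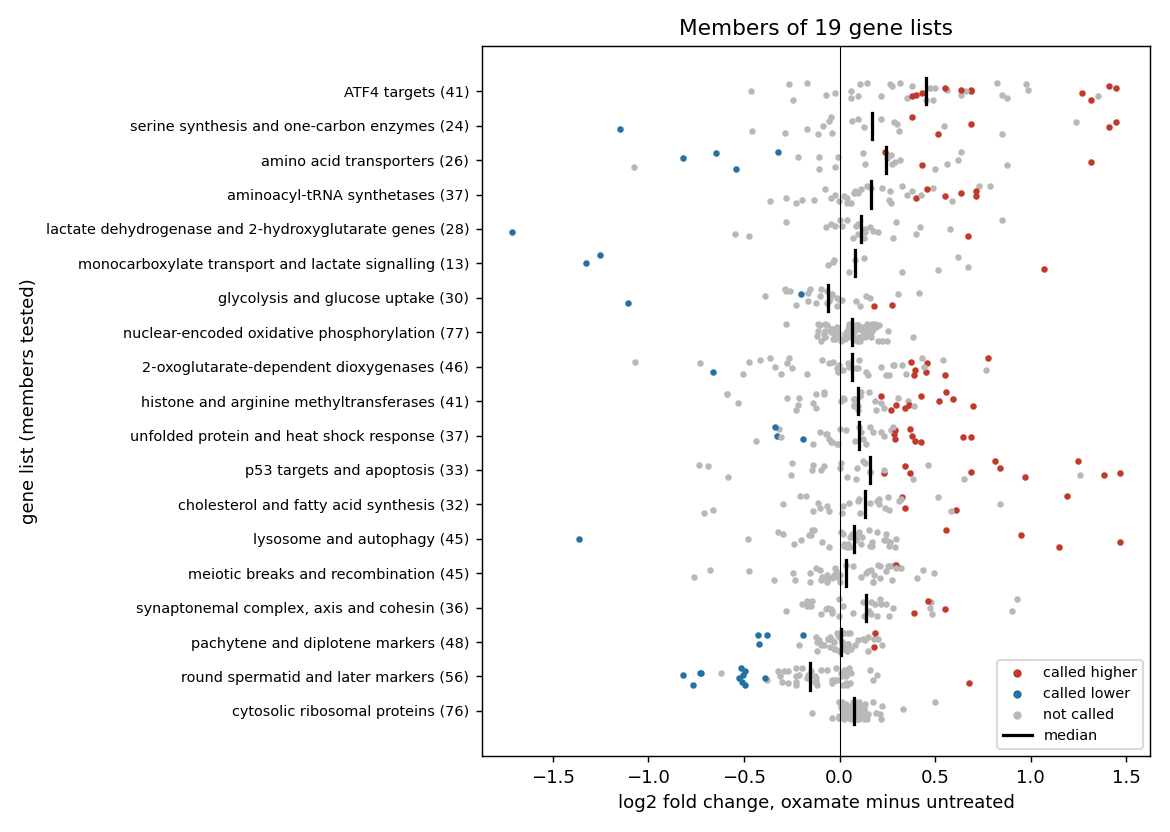
Log2 fold change, oxamate minus untreated, of the tested members of 19 gene lists; each point is a gene, red where called higher and blue where called lower, and a black bar marks the list's median. The median is 0.45 for ATF4 targets and -0.15 for round spermatid and later markers, and 0 of 77 oxidative phosphorylation genes and 0 of 76 ribosomal protein genes are called. Over all genes tested, 7.21% are called higher and 4.95% lower.

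Of 45 genes of meiotic breaks and recombination, 1 was called higher (2.22%, against 7.21% of all genes) and 0 lower (against 4.95%). At an unadjusted p under 0.05 there were 3 higher and 4 lower. The 1 called was Cdk2, which marks crossover sites and telomeres (2479 ± 104 to 3042 ± 61.8, log2 fold change 0.30 ± 0.06, limma adjusted p = 0.016). Its call was lost without untreated C or oxamate B (up to 0.0727). Of 36 genes of the synaptonemal complex, axis and cohesin, 3 were called higher (8.33%, against 7.21% of all genes tested) and 0 lower, with 7 and 1 at an unadjusted p under 0.05. These were Majin, which tethers telomeres to the nuclear envelope (0.46 ± 0.11, adjusted p = 0.0222), and Stag1 and Pds5a, cohesin subunit and regulator (0.39 ± 0.10, 0.0365; 0.55 ± 0.15, 0.0433). With the pair in the model 15 were called higher and 2 lower, against 18.4% and 15.2% of all genes, while the count was 5 without oxamate A and 0 or 1 without any other single library. Of 31 genes of sex-body silencing and damage signalling, 2 were called higher (6.45%, against 7.21% of all genes) and 0 lower (against 4.95%). At an unadjusted p under 0.05 there were 6 higher and 1 lower. Topbp1, which activates ATR, rose from 1211, 1317 and 1163 to 1528, 1760 and 1790 (0.46 ± 0.09, adjusted p = 0.0104) and held in all 6 fits without 1 library. Setdb1, a histone H3 lysine 9 methyltransferase of the sex body, was the other called higher (0.30 ± 0.06, adjusted p = 0.0177), a call lost without untreated A, untreated B or oxamate B (up to 0.0848) and in the fit over all 12 libraries (0.0564).

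Of 46 division genes, 2 were called higher and 2 lower (4.35% each, against 7.21% and 4.95% of all genes). With the pair 8 were called higher and 4 lower, against 18.4% and 15.2% of all genes. Cdc25a, a phosphatase that activates cyclin-dependent kinases, rose from 1669, 1544 and 1423 to 2265, 2084 and 2169 (0.49 ± 0.08, adjusted p = 0.00567), and Cdc20, an activator of the anaphase-promoting complex, fell from 3318 ± 172 to 2777 ± 123 (-0.26 ± 0.07, 0.0355; up to 0.139 without untreated A, untreated B, oxamate B or oxamate C, and 0.161 over all 12 libraries). Ago4, an Argonaute protein of the sex body, rose from 1166, 1156 and 1139 to 1717, 1846 and 1810 (0.63 ± 0.07, adjusted p = 0.00204). It was 1 of 2 called higher among 34 genes of the piRNA list (5.88%, against 7.21% of all genes), with 0 lower (against 4.95%). In the model with pairs 13 of this list were called higher and 1 lower, against 18.4% and 15.2% of all genes. The untreated libraries of Ago4 lay close together, well below each oxamate library. By limma and by voom, 0 of 76 cytosolic ribosomal protein genes were called, where limma called 7.21% of all genes higher and 4.95% lower. Before adjustment 6 of the 76 were higher and 0 lower (p under 0.05), and 7 and 1 were called with the pair. Lysosome and autophagy genes gave 4 higher (8.89%) and 1 lower (2.22%) of 45, beside 7.21% and 4.95% of all genes. Among them Atg16l1, which conjugates LC3 to membranes, rose from 13.1, 10.4 and 12.1 to 35.0, 36.9 and 31.5 (1.47 ± 0.24, adjusted p = 0.0068).

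Of 48 markers of the pachytene and diplotene stages, 2 were called higher (4.17%, against 7.21% of all genes) and 4 lower (8.33%, against 4.95%). Their median was 0.01 (-0.05 under total-count scaling). Markers of the stage that follows were lower in part. Of 56 genes that mark round spermatids and later cells, 11 were called lower (19.6%, against 4.95% of all genes) and 1 higher (1.79%, against 7.21%), with a median of -0.15. With the pair in the model 28 were called lower and 3 higher, against 15.2% and 18.4% of all genes. Tnp2, a transition protein that replaces histones, had 2623, 2895 and 2447 untreated and 1587, 1451 and 1474 with oxamate (chromosome 16, 10787936 to 10788660, minus strand; -0.82 ± 0.08, adjusted p = 0.00204). Prm1 and Prm2, the protamines that then pack sperm DNA, fell from 1160, 1274 and 1051 to 689, 709 and 644 (-0.77 ± 0.09, adjusted p = 0.00254) and from 1644 ± 169 to 994 ± 58.4 (-0.72 ± 0.09, adjusted p = 0.00287). Fam71b fell from 1110 ± 84.4 to 670.5 ± 56.6 (-0.73 ± 0.09, adjusted p = 0.00324). These 4 held without any 1 library. In the fit over all 12 libraries 0 of the 56 were called, and the adjusted p of the 4 ran from 0.512 to 0.78. The authors' own test of the same comparison did not call these 4 either. Its adjusted p was 0.31 for Tnp2, 0.74 for Prm1, 0.781 for Prm2 and 0.594 for Fam71b. In untreated LZ libraries Tnp2, Prm1, Prm2 and Fam71b averaged 10.4, 12.3, 40.7 and 1.92 normalized counts. The number of lower calls was 21 without oxamate A, 5 without oxamate B, untreated B or untreated C and 6 without untreated A.

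Together the round spermatid markers took 1.48%, 1.39% and 1.39% of counts in untreated libraries and 1.37%, 1.23% and 1.27% with oxamate. The groups did not overlap, and the exact two-sided permutation p was 0.1, the smallest that 3 against 3 allows (0.35 adjusted over 14 gene classes). The spermatogonia, Leydig, and endothelial and blood classes below did not overlap either, each with the same p and adjusted p. Spermatogonia markers took 0.00836% to 0.00889% and 0.00901% to 0.0098%, with Crabp1 and Sall4 at 0. Markers of cells outside the germ line were scarce. Sertoli cell markers took 0.00135% to 0.00164% untreated and 0.00147% to 0.00165% with oxamate, with Fshr and Rhox5 at 0 in all 6 libraries. Leydig cell markers took 0.00379% to 0.00426% and 0.00293% to 0.00326%, with Cyp11b1 at 0, and endothelial and blood markers 0.00272% to 0.00281% and 0.00174% to 0.0019%, with Hba-a2 at 0. Macrophage markers took 0.0083% to 0.0101% and 0.00628% to 0.0085%, with C1qa, C1qc and Tyrobp at 0, and peritubular and stromal markers 0.00328% to 0.00348% and 0.00292% to 0.00336%, with Mgp at 0. Vwf, an endothelial marker, fell from 253, 214 and 225 to 122, 119.7 and 127 (-0.90 ± 0.12, adjusted p = 0.00356), C1qb from 31.1 ± 4.98 to 14.6 ± 1.32 (-1.03 ± 0.25, 0.0251) and the smooth muscle gene Cnn1 from 47.5, 27.8 and 38.7 to 17.1, 10.97 and 13.8 (-1.37 ± 0.28, 0.0151), each with an adjusted p above 0.08 in the fit over all 12 libraries, while Postn rose from 158 ± 17.8 to 277 ± 65.7 (0.78 ± 0.18, 0.0242; 0.127 over all 12 libraries). Lower calls were made for 1 of 7 tested endothelial and blood markers, 1 of 5 macrophage and 2 of 8 peritubular and stromal markers, against 4.95% of all genes. Postn was the 1 called higher. In each of these lists 2 members had a log2 fold change above 0. The part of cells outside the germ line, and of spermatids in the sorted population, in the changes above was not tested.

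The largest falls and rises among genes with a mean count of at least 100 were of several kinds. Tpd52, a protein of membrane traffic, had 148, 191 and 219 untreated and 32.3, 46.9 and 52.2 with oxamate (chromosome 3, 8925593 to 9004723, minus strand), 4.26-fold lower. Ptpn3, a tyrosine phosphatase, had 355, 375 and 647 against 111, 165 and 136, with untreated library C well above the other 2. Manba, the lysosomal beta-mannosidase and the 1 lower gene of the lysosome list, had 233, 294 and 311 against 101, 109 and 112. Plcb2, a phospholipase C activated by G proteins, had 169, 222 and 214 against 61.9, 74.8 and 61.0, and Rapgef4, an exchange factor activated by cyclic AMP, had 226, 269 and 299 against 120.2, 115 and 100.4. All 5 kept their calls in every alternative fit. On the other side, Sos2, which loads RAS with GTP, had 92.6, 71.9 and 44.8 untreated and 165, 218 and 220.4 with oxamate (chromosome 12, 69583762 to 69681852, minus strand). Tnks2, a poly-ADP-ribosyltransferase, had 73.6, 63.8 and 62.0 against 145, 165 and 159, Phtf2 had 131, 143 and 118 against 275, 313 and 298, and Pgm2l1, which makes glucose 1,6-bisphosphate, had 449.9, 494 and 422 against 836, 1081 and 1097.

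The smallest adjusted p, 0.000857, was shared by 2 genes called lower. Il4i1, a secreted L-amino acid oxidase, had 2794, 2708 and 2707 untreated and 1570, 1526 and 1514 with oxamate, a fall of 1.78-fold. The long noncoding RNA 4930511A02Rik had 412, 492 and 488 against 164, 167 and 165; its adjusted p was 0.0683 in the fit over all 12 libraries. Josd1, a deubiquitinase, had 1028, 1009 and 888 against 1872, 1774 and 1783, and Zfp609, a zinc finger protein, 1902, 2146 and 2004 against 3310, 3469 and 3289. Etnk1, ethanolamine kinase, had 2461, 2472 and 2214 against 3662, 4071 and 4220.

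Among called genes, those with the most counts had small changes. Dnah8, a heavy chain of the sperm axonemal dynein, had 127500, 136100 and 135300 untreated and 147700, 161400 and 159300 with oxamate (0.23 ± 0.04, adjusted p = 0.0105), a call lost without oxamate B (0.0534) and in the fit over all 12 libraries (0.33). Kctd19, which acts with ZFP541 in late meiotic prophase, fell from 15010, 15740 and 15990 to 13080, 12950 and 12160 (-0.29 ± 0.05, adjusted p = 0.00862) and held in every alternative fit. Akap12, a scaffold of protein kinase A, fell by 0.19 on the log2 scale (adjusted p = 0.0303) and Gk2, a testis glycerol kinase, by 0.28 (adjusted p = 0.0187); Akap12 lost its call without oxamate B or any untreated library (up to 0.141), and Gk2 without any but oxamate A (up to 0.07). In the fit over all 12 libraries their adjusted p was 0.881 and 0.936.

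The direction of change went with the level of a gene at the earlier stage. The 12616 protein-coding genes with a transcript length were divided into 5 groups of nearly equal size by their normalized count per 1000 bases of the longest transcript in untreated LZ libraries, which take no part in the oxamate comparison. From the lowest to the highest group, the share called higher was 1.74%, 3.73%, 8.92%, 14.5% and 16.5%, and the share called lower 10.4%, 6.38%, 2.7%, 1.74% and 1.27%. The median log2 fold change was -0.16 in the lowest group, with -0.17, -0.20 and -0.11 in pairs A, B and C, and 0.11 in the highest, with 0.13, 0.13 and 0.08. The 5 groups also differed in counts, with medians of 64.4 and 1450 over the PD libraries. Within the 4950 genes that averaged 100 to 1000 there, the shares ran from 2.93% to 18.6% higher and from 13.5% to 0.707% lower, at median counts of 265 and 484.

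**Figure D5:**
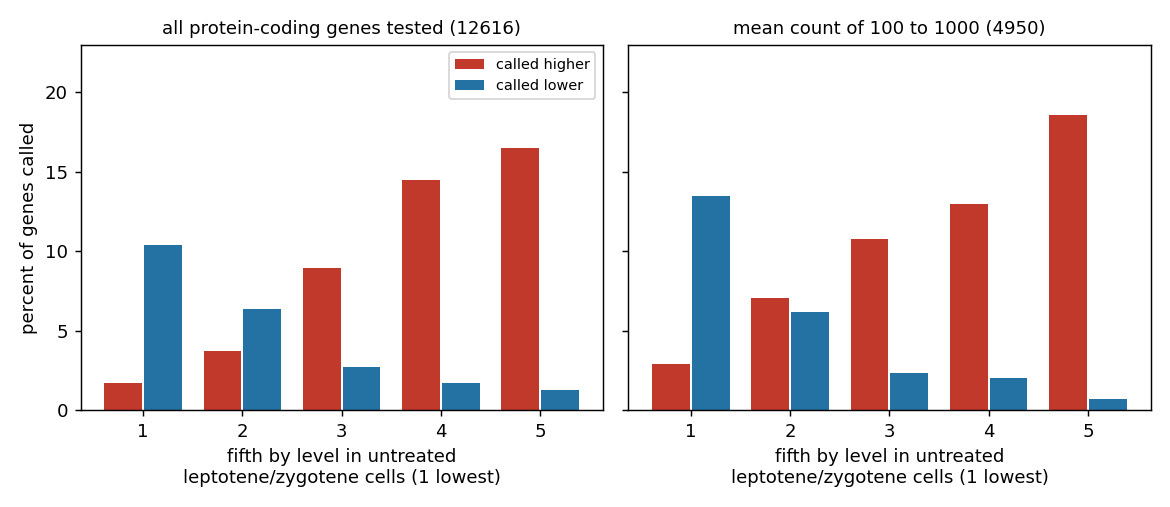
Percent of protein-coding genes called higher (red) and lower (blue) with oxamate in PD cells, in 5 groups by their level per 1000 bases in untreated LZ cells, for all 12616 genes (left) and for the 4950 genes with a mean count of 100 to 1000 (right). The share called higher climbs from 1.74% to 16.5% on the left and from 2.93% to 18.6% on the right, while the share called lower falls from 10.4% to 1.27% and from 13.5% to 0.707%.

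The kind of gene differed as well. Of 12628 protein-coding genes, 9.08% were called higher and 4.51% lower, whereas of 2624 long noncoding RNA genes 0.953% were higher and 7.39% lower, with a median of -0.20. The share of counts taken by long noncoding RNA genes overlapped between groups. It was 2.93%, 2.95% and 3.03% in untreated libraries A, B and C and 2.58%, 2.63% and 3.15% with oxamate. Prox2os, a noncoding RNA antisense to Prox2, fell from 95.0, 157 and 213 to 52.0, 71.8 and 61.0 (-1.25 ± 0.28, adjusted p = 0.0214; up to 0.0835 without untreated B, untreated C or oxamate C); whether the counting used strand is not given in the sources used here, so its reads and those of Prox2 may not be separable. Among protein-coding genes the share called higher went from 3.53% in the 1 of 5 groups with the shortest transcripts to 14% in that with the longest, and the share called lower from 4.71% to 5.43%. The median log2 fold change was 0.0048 in the shortest group and 0.06 in the longest. The part of read counts in this trend was not tested.

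X-linked genes, which are silenced in the sex body during pachytene, took 0.227% ± 0.0243 of counts untreated and 0.225% ± 0.0159 with oxamate (n = 3 each, overlapping), against 3.43% in untreated LZ libraries. Of 343 tested, 29 were called higher (8.45%) and 4 lower (1.17%), beside 7.21% and 4.95% over all genes. Hcfc1, a transcriptional coregulator, had 112, 114 and 113 untreated and 188, 221 and 214 with oxamate (0.87 ± 0.13, adjusted p = 0.00402). Fthl17-ps3, a ferritin-like sequence with close copies nearby, had 22.6, 22.0 and 12.9 against 87.9, 99.7 and 69.9 (2.13 ± 0.26, adjusted p = 0.00256); reads may be shared among those copies, so its value is uncertain. Of 36 Y-linked genes, limma called 0 (2 higher and 1 lower with the pair), and 1 was higher and 1 lower before adjustment (p under 0.05).

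In the authors' deposited table, which lists their own test of the same comparison, 1139 genes were higher and 537 lower at an adjusted p under 0.05. Among the genes tested here, the authors' deposited table called 1131 higher and 524 lower. The calls shared with the authors' deposited table were 930 of the higher, 78.7% of the calls made here and 82.2% of those 1131, and 426 of the lower, 52.5% of the calls here and 81.3% of those 524.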

How the data were processed

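Cells had been sorted and cultured, and poly-A RNA was made into libraries with a KAPA Stranded mRNA-Seq kit, per the labels' protocols. Per the submitters' processing notes, the tools were DESeq2 1.22.2, HTSeq 0.6.0, TopHat2 2.1.1, cutadapt 1.18 and bcl2fastq 2.18.0.12, and the build was GRCm38; the strand setting of the counting is not given in the sources used here. The deposited table holds raw counts per gene beside the authors' log2 fold changes and p-values. Its count columns hold question marks for 6255 of 55471 genes, which were left out, and 12 normalized value columns were not used. Because of these marks limma 3.58.1 (R 4.3.3) was used in place of a count model.

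Counts were divided by TMM-scaled library sizes, genes with a mean of at least 10 were kept, and limma's moderated test with a trend and robust variance was run on log2(normalized count + 1), with Benjamini-Hochberg adjustment over 16401 genes and a threshold of 0.05. The test was also run on simulated counts that carried no effect shared within a pair, and the outcome is not reported here. Libraries with the same code deviated together from their group means (correlations of 0.477, 0.342 and 0.39, against 0.00375 or lower for other codes), so the codes were taken as pairs, and a model with the pair as a block was fitted as well. Alternatives were total-count and median-of-ratios scaling, pseudocounts of 0.5 and 5, other filters, voom weights, variance moderation that is not robust, a fit over all 12 libraries and leaving out each library. The genes named are the 12 largest rises and 12 largest falls with a mean count of at least 100 and a plain symbol, up to 4 called members of each list in each direction by p, or the 2 with the smallest p where none was called, the enzymes of lactate and 2-hydroxyglutarate, the 6 most counted called genes in each direction and the 10 with the smallest p; the text gives those that carry a result. Members and lists were chosen with earlier results of these data known. Promoter sequences are RefSeq's. Some genes that this rule names are not reported here.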

Additional observations from a re-analysis of the deposited data

How the results depend on the processing

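The counts of 1182 higher and 812 lower genes depended most on the pairing and on single libraries. With the replicate block, the paired fit, they were 3018 and 2486. Without 1 library they ran from 456 to 978 higher and from 209 to 862 lower, each lowest count coming with fewer samples in the fit. The fit over all 12 libraries gave 931 and 319; the cause was not tested. The authors' deposited table gave 1139 and 537. Total-count scaling gave 824 and 1043, and no filter on low counts 1379 and 1169. Counts stayed within 1.5 times under the other scaling, pseudocount, filter, voom and variance settings. Of 133 called genes among the 153 named and tested, 49 kept their call under every alternative and 84 lost it under at least 1.

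The sign of Ldhc reversed to -0.03953 with total-count scaling, -0.003862 without untreated B, -0.005302 without untreated C, -0.05285 without oxamate A and -0.002347 without oxamate B. That of Idh2 reversed to -0.4287 without untreated B and -0.1594 without oxamate A. Without 1 library Ldhc ran from -0.05285 to 0.06826 and Idh2 from -0.4287 to 0.5713.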
